A study of Homo sapiens and Canis lupus familiaris with 27 samples.

Results

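Interferon-stimulated genes are switched on when interferon binds its receptor, and the set described here holds 37 of them. Members were chosen by name: a row of a gene count table belonged to the set if its name was on the list, whatever its values. All 37 were listed among the 23708 genes of the PC-3 table and of the LNCaP table, and 26 were listed among the 16028 genes of the CT1258 table. RNA was sequenced from PC-3, a human prostate carcinoma cell line from a bone metastasis, from LNCaP, a human prostate carcinoma cell line from a lymph node metastasis, and from CT1258, a canine prostate carcinoma cell line. The cells were exposed to PDA-66, an indolylmaleimide that disturbs microtubules, at 15 μM for 12 h or 24 h, or to 0.15% DMSO, the vehicle. Each group had 3 biological replicates, except PC-3 DMSO, of which 2 (replicates 2 and 3) were analysed because the study had excluded the other. The DMSO samples are labelled 24 h, so for the 12 h comparison the time in culture and PDA-66 cannot be told apart. The comparisons addressed whether these genes changed under a drug that makes mitosis fail, and whether the cell lines differed in this.

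Type I and type III interferons act through their receptors on the kinases JAK1 and TYK2, which phosphorylate STAT proteins, STAT2 among them. Together with IRF9, these form the complex ISGF3, which binds the interferon-stimulated response element (ISRE) in front of its target genes. Cells start this response themselves when sensors such as RIG-I, MDA5 or cGAS meet RNA or DNA in the cytoplasm, and DNA that leaks from damaged or misplaced nuclei is one known trigger of cGAS. Many tumor cell lines have lost parts of the pathway.

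Sequence in front of the genes was examined for the ISRE, which ISGF3 binds and which the list of members did not use. The letters GAAANNGAAA were searched on both strands, which is TTTCNNTTTC on the other strand, in the 250 bases before each annotated start (RefSeq, GRCh38.p14). Of the 37 members, 31 had a promoter entry (IFIT2, MX2, OAS2, OASL, USP18 and IRF7 had none). The ISRE letters were found for 20 of the 31 (64.5%), and for 1014 of all 27305 genes with an entry (3.71%). The shorter letters of the gamma-activated site, TTCNNNGAA, were found for 11 members (35.5%) and for 8.09% of all genes. A match of letters is a description and not a measured binding site, and no match says only that these letters are not in the window. Canine promoters were not used here. Of the 20 members that passed the test in at least 1 comparison of PDA-66 with DMSO, 9 hold the letters, and their windows follow. IFIT2 and OAS2 had no promoter entry, and OAS1, STAT2, IRF1, IRF9, XAF1, DDX58, HERC6, IFI35 and SAMD9L had no match. ISG15, IFI44 and IFI44L passed in CT1258 alone, and all windows shown are of the human genes. Each is 60 bases on the strand of the gene, 5′ to 3′, with the ISRE letters in capitals.
IFIT1 (chr10:89392495-89392554, + strand, last match 93 bases before a start): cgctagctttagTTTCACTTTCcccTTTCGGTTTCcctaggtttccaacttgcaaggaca
IFIT3 (chr10:89332453-89332512, + strand, 41 bases): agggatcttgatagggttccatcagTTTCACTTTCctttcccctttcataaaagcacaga
IFIH1 (chr2:162318685-162318744, - strand, 11 bases): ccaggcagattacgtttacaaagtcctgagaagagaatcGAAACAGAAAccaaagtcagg
ISG15 (chr1:1013365-1013424, + strand, 97 bases): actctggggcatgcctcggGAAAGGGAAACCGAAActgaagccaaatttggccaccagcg
HERC5 (chr4:88457020-88457079, + strand, 64 bases): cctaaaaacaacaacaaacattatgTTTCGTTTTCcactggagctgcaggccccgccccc
IFI44 (chr1:78649729-78649788, + strand, 8 bases): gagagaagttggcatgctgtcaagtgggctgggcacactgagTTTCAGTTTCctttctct
IFI44L (chr1:78620350-78620409, + strand, 63 bases): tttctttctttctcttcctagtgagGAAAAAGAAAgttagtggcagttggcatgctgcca
PARP9 (chr3:122564307-122564366, - strand, 31 bases): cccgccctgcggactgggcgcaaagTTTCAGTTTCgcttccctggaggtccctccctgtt
ISG20 (chr15:88638922-88638981, + strand, 59 bases): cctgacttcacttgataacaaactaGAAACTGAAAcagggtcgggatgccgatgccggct
In the ISG15 window, a pair of matches overlaps and shares its middle GAAA.

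Total counts per sample were 14650839 to 18091755 in PC-3, 11923105 to 14741883 in LNCaP and 7203534 to 20976950 in CT1258. In CT1258, the controls had 2.64 times the counts of the PDA-66 samples. The luminal prostate marker KLK2 was at 255 to 802 CPM in the LNCaP samples and at 0 in every PC-3 sample. CPM are counts per 1e6 of the total count after scaling by the TMM normalization factor, which was set within each cell line. In CT1258, KLK2 was at 10.8, 3.33 and 3.58 CPM with DMSO and at 0 in every PDA-66 sample. The reason for this split between CT1258 controls and PDA-66 samples was not tested. TMPRSS2, another luminal marker, was at 129 to 573 CPM in LNCaP and at 0.0676 to 0.671 CPM in PC-3. It was at 0 in every CT1258 sample. The epithelial markers EPCAM, KRT8, KRT18 and CDH1 summed to 517 to 576 CPM in PC-3 with DMSO, 334 to 371 CPM after 12 h and 331 to 455 CPM after 24 h. EPCAM was the single one of these listed for CT1258, with at most 2 counts in a sample. The summed level of 8 leukocyte markers was at most 1.15 CPM in LNCaP and 1.90 CPM in CT1258. In PC-3, it was 13.9 to 20.7 CPM with DMSO, 2.37 to 2.70 CPM after 12 h and 2.50 to 3.38 CPM after 24 h. Most of it was LYZ (13.1 to 19.4 CPM with DMSO), while PTPRC, which all leukocytes carry, was at 0.0675 and 0.335 CPM with DMSO and at 0.131 to 1.13 CPM with PDA-66. The 4 fibroblast markers summed to 14.6 to 16.8 CPM with DMSO, 7.72 to 10.5 CPM after 12 h and 9.11 to 12.6 CPM after 24 h, and the 3 endothelial markers to 13.0 to 18.8, 4.26 to 5.41 and 8.0 to 10.1 CPM, nearly all of it PECAM1, with CDH5 at no more than 4 counts. The sums of these 4 marker lists were thus lower with PDA-66 in PC-3, and their part in the results was not tested. In whole cultures, fewer cells that express a gene and less RNA of it per cell cannot be told apart.

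With DMSO and no PDA-66, the members stood much higher in PC-3 than in LNCaP. Of the 37, 28 were higher and 1 was lower in PC-3 DMSO than in LNCaP DMSO (edgeR adjusted p under 0.001, the threshold used throughout), which is 78.4%, whereas 40.8% of all genes tested passed in either direction (21.7% higher, 19.1% lower). The median log2 difference was 2.40 for the members and 0.01 for all genes. MX2, OAS2, IFI27, IFI44L, SAMD9L, XAF1 and PSMB8 had too few counts for a test within LNCaP and entered this fit through PC-3, and 6 of them are among the 28. Among the 30 members past the filter in both cell lines, 22 were higher and 1 was lower (76.7%, and 34.1% of all such genes), with a median of 1.96 (-0.03 for all such genes). Growth medium differs between these cell lines and cannot be told apart from the line. Leaving out any 1 sample left between 26 and 32 members past the threshold. Counts from fits without 1 sample, here and below, are given without the share of all genes tested.

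The gap was not the same for all roles. All 4 IFIT genes, all 4 OAS genes, all 4 transcription factors and all 5 IFI genes were higher in PC-3. Among these, OAS2, IFI27 and IFI44L had too few counts in LNCaP and entered the fit through PC-3, where they are high. None of the 4 genes of the ISG15 system passed the threshold as higher in PC-3. A difference between roles was not tested. OAS2, an enzyme that makes 2-5A to activate RNase L, was at 57.2 and 33.1 CPM in PC-3 DMSO and at 0.423, 0.329 and 0 CPM in LNCaP DMSO. These LNCaP values rest on 6, 4 and 0 counts. BST2, which tethers budding virus to the cell surface, reached 295 and 252 CPM in PC-3 and 3.03, 1.32 and 0.926 CPM in LNCaP (log2 difference 7.28, SE 0.46, edgeR adjusted p = 3.86e-10). The groups were far apart for both genes, and the CPM of the cell lines were scaled separately. HERC6 was the member that was lower in PC-3, at 15.8 and 8.05 CPM against 29.8, 35.1 and 26.9 CPM in LNCaP (log2 difference -1.33, SE 0.24, edgeR adjusted p = 0.000113). USP18, the protease that removes ISG15, was at 6.35 and 5.70 CPM in PC-3 and at 13.2, 12.5 and 13.3 CPM in LNCaP. Its edgeR adjusted p was 0.00503, which missed the threshold, although the samples did not overlap. ISG15 (log2 difference 1.12, edgeR adjusted p = 0.0408) and HERC5 (0.90, edgeR adjusted p = 0.00467) missed it too. For both, the PC-3 samples lay above all LNCaP samples.

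Levels of different genes were compared per kilobase of the canonical transcript (RPKM). BST2 led in PC-3 DMSO with 278 ± 30.8 RPKM (SD, n = 2), followed by ISG15 with 143 ± 10.6, IFI6 with 65.4 ± 9.38, PARP9 with 53.3 ± 6.56 and IFIT3 with 47.6 ± 2.66 RPKM. BST2 and ISG15 stood apart from all genes below them, whereas the ranges of IFI6 (58.7 to 72.0) and PARP9 (48.7 to 58.0 RPKM) nearly touched, and those of PARP9 and IFIT3 (45.7 to 49.5) overlapped. In LNCaP, ISG15 was first with 66.0 ± 20.0 RPKM (SD, n = 3), and PARP9 (16.6 ± 1.13), TAP1 (13.0 ± 3.54) and IFI6 (12.3 ± 4.81) came next with ranges that overlapped. In every PC-3 control 35 members were above 1 RPKM, compared with 20 members in every LNCaP control, and 10 members were below 1 RPKM in all LNCaP controls. The shares of all genes at these levels were not counted.

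**Figure D1:**
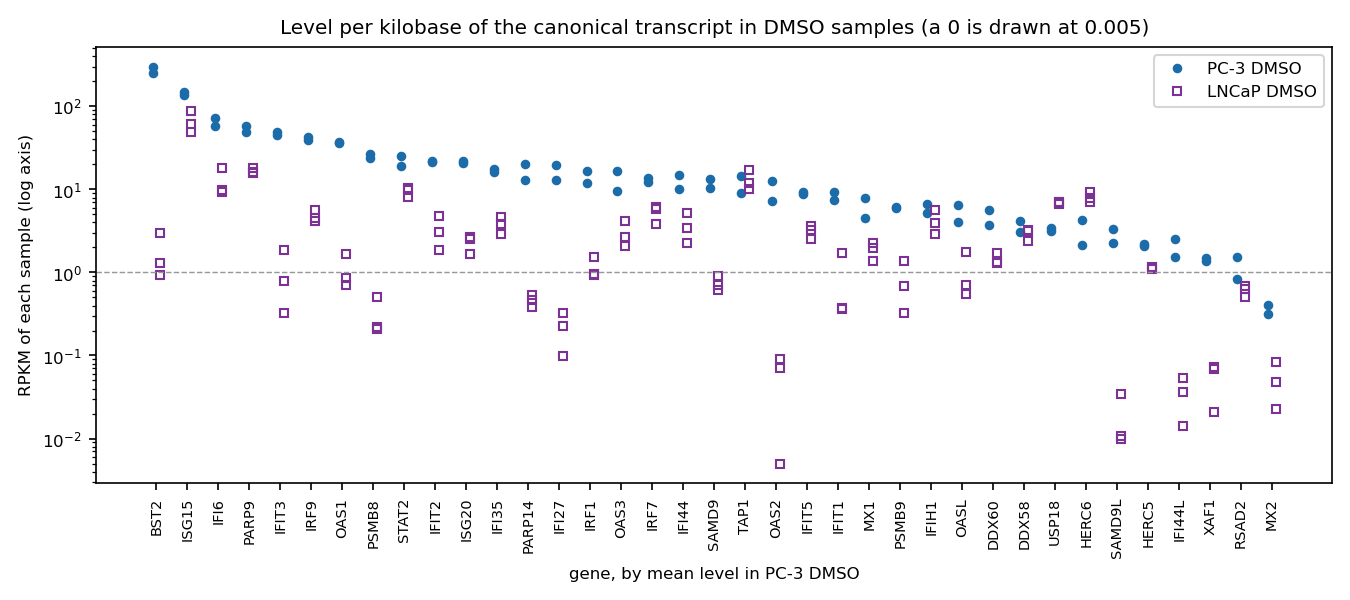
RPKM (log axis) of each member in each DMSO sample, ordered by the PC-3 mean, with filled circles for PC-3 and open squares for LNCaP; the dashed line marks 1 RPKM and a level of 0 is drawn at 0.005. For 32 members both PC-3 samples lie above all LNCaP samples, and for USP18 and HERC6 they lie below. The share of all genes that separate in this way was not counted.

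Several members are neighbours in the genome (hg19). IFIT2, IFIT3, IFIT1 and IFIT5 lie on chromosome 10 between 91043451 and 91181362, OAS1, OAS3 and OAS2 on chromosome 12 between 113343661 and 113449528, HERC6 and HERC5 on chromosome 4 between 89299891 and 89427314, and IFI44L and IFI44 on chromosome 1 between 79085587 and 79129763. Members of one cluster are related in sequence, and the handling of reads that match more than 1 gene is not given in the sources used here. On the same strand, 93.1% of the IRF9 exons and 96.6% of the DDX58 exons are shared with a readthrough or overlapping gene, and 74.2% of the XAF1 exons face a gene on the opposite strand. Whether the counting used the strand is not stated, so values of these genes may include reads of the partner.

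In CT1258, most of the members that could be tested were higher after 12 h of PDA-66. Of 26 listed members 19 passed the filter on low counts, 12 were higher and 1 was lower. That is 68.4%, compared with 44.3% of all genes tested (22.2% higher, 22.1% lower). The median log2 fold change was 1.06 for the members and 0 for all genes, and 15 of 19 were above 0. The members that passed the filter are those with enough reads in at least some samples, so they do not stand for all 37.

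**Figure D2:**
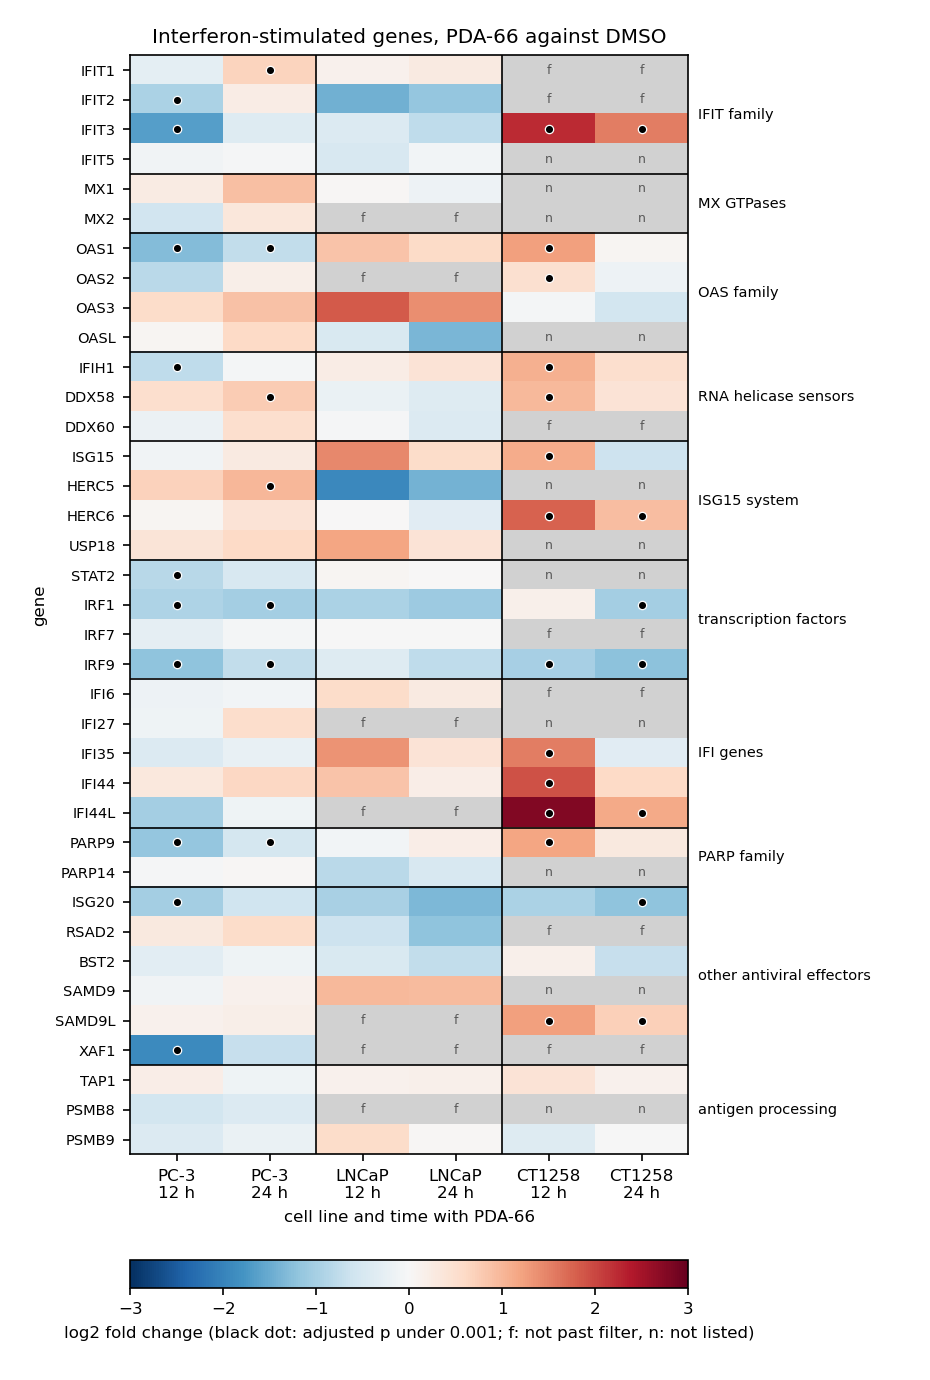
Log2 fold change of each member (rows, grouped by role) in each comparison of PDA-66 with DMSO (columns); red is higher and blue lower with PDA-66, a black dot marks an edgeR adjusted p under 0.001, f a member not past the filter and n a member not listed. Of 19 members tested in CT1258 after 12 h, 12 are red with a dot, while none of the 37 members in PC-3 after 12 h is.

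The IFIT proteins bind viral RNA. IFIT3 was at 1.49, 1.34 and 2.14 CPM in the CT1258 controls, at 9.59, 8.39 and 5.48 CPM after 12 h and at 5.77, 4.20 and 4.48 CPM after 24 h. All PDA-66 samples lay above all controls. The log2 fold change was 2.23 (SE 0.25, edgeR adjusted p = 2.71e-06) after 12 h and 1.54 (SE 0.27, edgeR adjusted p = 0.000206) after 24 h. IFIT2 did not pass the filter, with 0.298, 0.298 and 0.397 CPM in the controls, 1.07, 2.52 and 2.54 CPM after 12 h and 0.736, 0.656 and 1.09 CPM after 24 h.

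Of the OAS enzymes, OAS1 and OAS2 rose after 12 h and none passed after 24 h. OAS1 was at 35.0, 44.3 and 36.3 CPM with DMSO, at 88.9, 90.1 and 92.0 CPM after 12 h and at 44.4, 39.1 and 37.3 CPM after 24 h. The 12 h samples were clearly apart, and the 24 h samples lay among the controls. Its log2 fold change was 1.23 (SE 0.11, edgeR adjusted p = 2.85e-07) after 12 h and 0.07 (SE 0.11, edgeR adjusted p = 0.614) after 24 h. OAS2 went from 131, 137 and 126 CPM with DMSO to 178, 190 and 187 CPM after 12 h (log2 fold change 0.49, SE 0.078, edgeR adjusted p = 6.9e-05) and 122, 122 and 109 CPM after 24 h. OAS3 was at 32.4, 24.8 and 34.1 CPM with DMSO, 26.1, 30.7 and 30.2 CPM after 12 h and 20.4, 21.6 and 20.6 CPM after 24 h. It passed the test at neither time (edgeR adjusted p = 0.639 and 0.00227).

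Both RNA helicase sensors that were tested rose after 12 h. IFIH1, which encodes MDA5 and senses long double-stranded RNA, was at 31.0, 23.2 and 25.4 CPM with DMSO, at 55.4, 55.6 and 54.4 CPM after 12 h and at 37.9, 39.2 and 35.9 CPM after 24 h. DDX58, which encodes RIG-I, was at 11.8, 10.5 and 9.04 CPM with DMSO, at 22.1, 20.5 and 19.0 CPM after 12 h and at 11.9, 16.7 and 13.6 CPM after 24 h. In both genes the 24 h samples stood between the other groups. The log2 fold changes after 12 h were 1.06 (SE 0.11, edgeR adjusted p = 1.62e-06) for IFIH1 and 0.97 (SE 0.14, edgeR adjusted p = 3.56e-05) for DDX58. After 24 h, 0.51 (edgeR adjusted p = 0.00138) and 0.42 (edgeR adjusted p = 0.0234) missed the threshold.

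The ISG15 system attaches a ubiquitin-like protein to other proteins. ISG15 itself was at 3.22, 4.13 and 3.48 CPM with DMSO, at 8.39, 7.08 and 8.02 CPM after 12 h and at 2.58, 2.49 and 1.90 CPM after 24 h, so that the 24 h samples were the lowest. The log2 fold change was 1.11 (SE 0.17, edgeR adjusted p = 5.44e-05) after 12 h and -0.63 (SE 0.21, edgeR adjusted p = 0.0192) after 24 h. HERC6, a ligase of the family that attaches ISG15, was at 5.65, 4.58 and 5.22 CPM with DMSO, at 16.9, 18.1 and 18.0 CPM after 12 h and at 8.22, 10.4 and 10.7 CPM after 24 h. It rose at both times, by 1.78 (SE 0.14, edgeR adjusted p = 1.22e-07) and 0.92 (SE 0.15, edgeR adjusted p = 0.000118) on the log2 scale.

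Of the 2 transcription factors tested, 1 was lower after 12 h and both were lower after 24 h. IRF9, the DNA-binding subunit of ISGF3, was at 25.0, 30.3 and 23.9 CPM with DMSO, at 11.2, 14.2 and 14.2 CPM after 12 h and at 13.0, 8.92 and 11.7 CPM after 24 h. Every PDA-66 sample was below every control. The log2 fold change was -1.0 (SE 0.15, edgeR adjusted p = 4.2e-05) after 12 h and -1.24 (SE 0.15, edgeR adjusted p = 1.28e-05) after 24 h. IRF1, an activator that interferon gamma induces strongly, was at 23.9, 25.2 and 23.2 CPM with DMSO, at 27.0, 24.3 and 29.4 CPM after 12 h and at 11.9, 12.3 and 11.1 CPM after 24 h. It passed the test at 24 h alone (log2 fold change -1.03, SE 0.11, edgeR adjusted p = 4.7e-06). IRF7 was listed at 0 in every CT1258 sample, and STAT2 was not listed.

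All 3 IFI genes that were tested rose after 12 h. IFI44L had the highest fold change of the 19 members tested, with 1.59, 1.34 and 1.59 CPM in the controls, 10.7, 11.5 and 8.95 CPM after 12 h and 3.56, 3.15 and 3.26 CPM after 24 h. IFI44, its neighbour, was at 10.8, 11.7 and 11.5 CPM, then 44.5, 46.3 and 36.0 CPM, then 15.2, 17.0 and 19.1 CPM. The same order of the groups, 12 h above 24 h above DMSO, held in both genes without overlap. After 12 h, the log2 fold change was 2.78 (SE 0.18, edgeR adjusted p = 2.28e-08) for IFI44L and 1.90 (SE 0.12, edgeR adjusted p = 2.38e-08) for IFI44. After 24 h, IFI44L still passed (1.14, SE 0.21, edgeR adjusted p = 0.000397) and IFI44 did not (0.59, SE 0.13, edgeR adjusted p = 0.00133). IFI35, a partner of NMI, had few counts, at 0.893, 1.14 and 0.596 CPM with DMSO, 2.26, 2.64 and 2.81 CPM after 12 h and 0.859, 0.393 and 0.814 CPM after 24 h. Its rise of 1.54 after 12 h (SE 0.30, edgeR adjusted p = 0.000461) lost the threshold when control replicate 1 or 3 or any 12 h replicate was left out, with an adjusted p of up to 0.00346.

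PARP9, which works with the ligase DTX3L, was at 10.1, 10.4 and 8.89 CPM with DMSO, at 23.8, 21.6 and 21.3 CPM after 12 h and at 11.5, 11.9 and 12.5 CPM after 24 h. SAMD9L, a restriction factor that acts on translation, was at 119, 81.4 and 111 CPM, then 259, 252 and 219 CPM, then 159, 171 and 180 CPM. Both were highest at 12 h, with no overlap between the groups. The log2 fold changes after 12 h were 1.18 (SE 0.11, edgeR adjusted p = 8.24e-07) for PARP9 and 1.23 (SE 0.12, edgeR adjusted p = 1.23e-06) for SAMD9L. SAMD9L also passed at 24 h, with 0.71 (SE 0.12, edgeR adjusted p = 0.000228). ISG20, an exonuclease that degrades RNA, was lower, at 5.11, 5.77 and 4.07 CPM with DMSO, 2.53, 2.28 and 2.94 CPM after 12 h and 2.45, 2.49 and 1.49 CPM after 24 h. The difference passed at 24 h (-1.20, SE 0.24, edgeR adjusted p = 0.000578) and not at 12 h (-0.95, SE 0.23, edgeR adjusted p = 0.00207), although both groups lay below the controls. The members of antigen processing, TAP1 and PSMB9, passed at neither time.

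After 24 h in CT1258, 4 of the 19 members tested were higher (IFIT3, HERC6, IFI44L and SAMD9L) and 3 were lower (IRF1, IRF9 and ISG20). This share of 36.8% lies near the 33.8% of all genes tested, and the median log2 fold change was 0.07 compared with -0.01. The count depended on single libraries: it was 4 without 24 h replicate 1 and 3 without 24 h replicate 2 or 3, and 10 without control replicate 2. With control counts thinned to the depth of the PDA-66 samples, 12 members passed after 12 h (11 higher, without IFI35) and 6 after 24 h. The share of all genes that passed with thinned counts is not given here.

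The time points differed in CT1258. Compared directly, 7 of 19 members were lower after 24 h than after 12 h and none was higher, which is 36.8%, whereas 2.13% of all genes tested passed (1.28% lower, 0.850% higher). The log2 difference was below 0 for 18 of 19 members, with a median of -0.70 (0.01 for all genes). The 7 were ISG15 (-1.74, SE 0.21, edgeR adjusted p = 0.000141), IFI44L (-1.64, SE 0.18, edgeR adjusted p = 0.000104), IFI44 (-1.30), IRF1 (-1.19), OAS1 (-1.16), PARP9 (-0.89) and OAS2 (-0.65). The number was 3 without 12 h replicate 1 or 2 or 24 h replicate 2 or 3, 4 without 12 h replicate 3 or 24 h replicate 1, and 13 without control replicate 2. All of these were lower after 24 h.

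**Figure D3:**
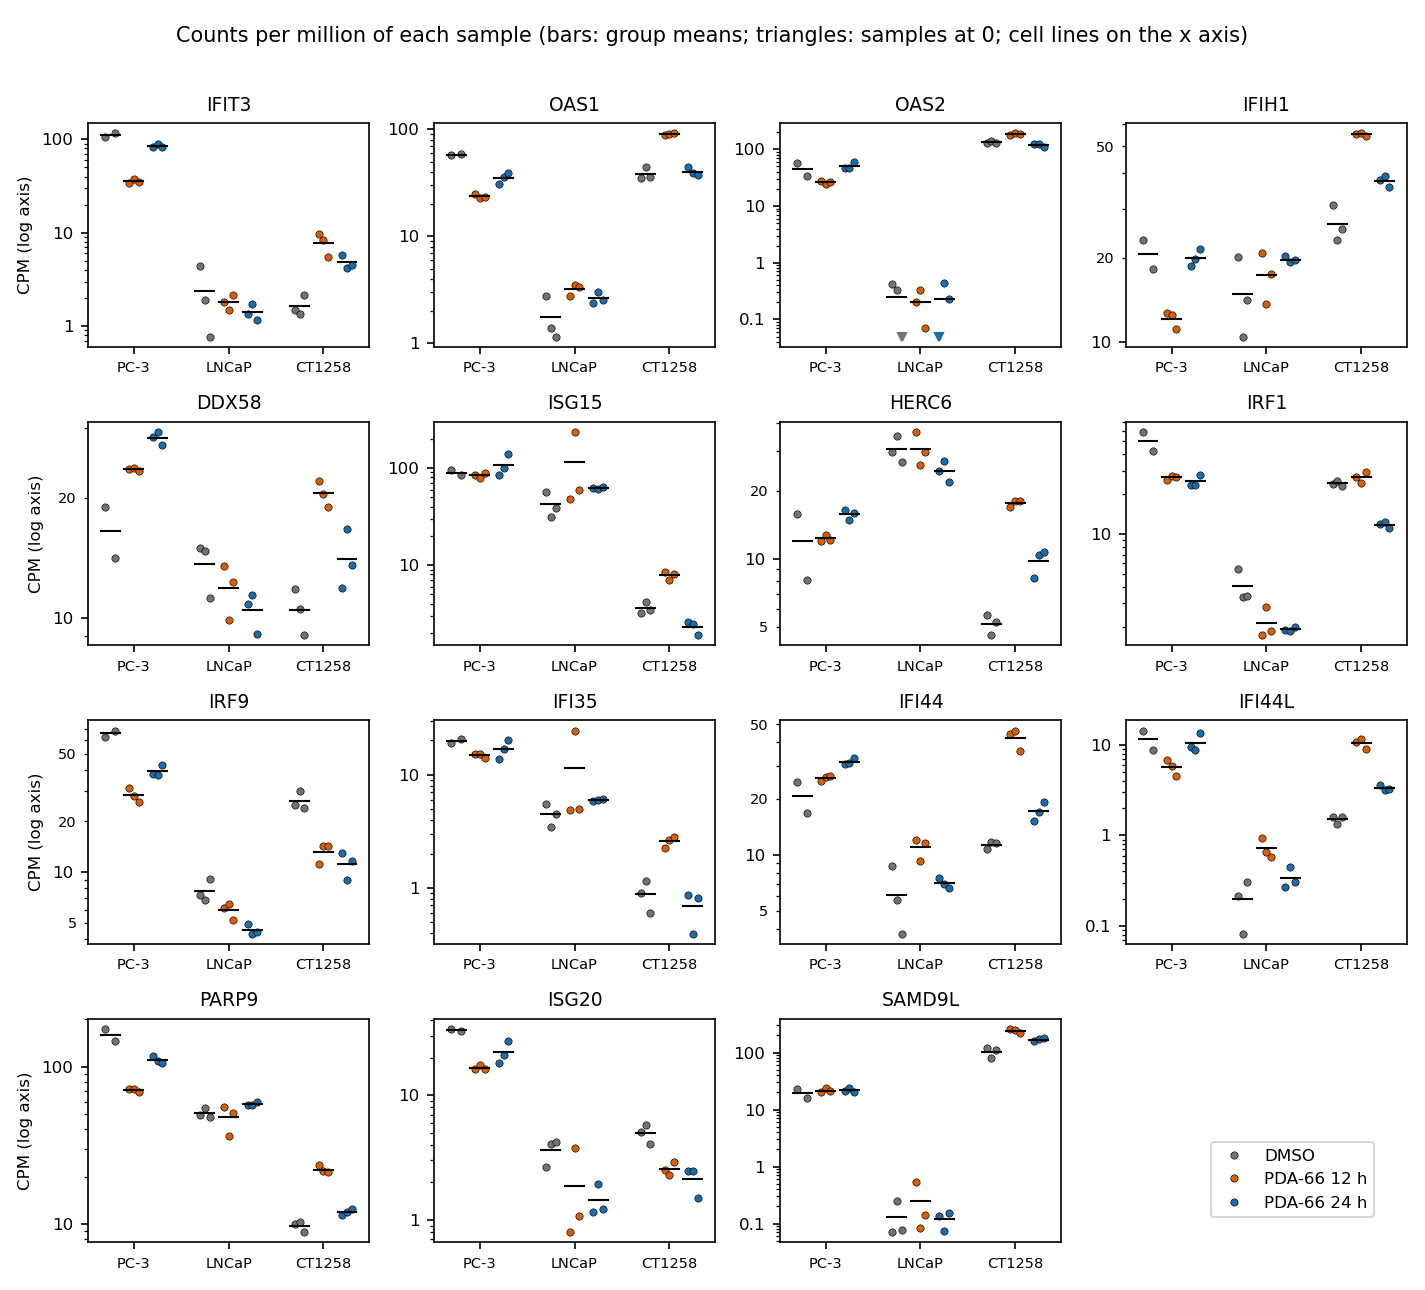
CPM (log axis, scaled per gene) of every sample for 15 members by cell line (x axis), with grey for DMSO, orange for 12 h and blue for 24 h of PDA-66, bars for group means and triangles for samples at 0. In CT1258 the orange points of IFIT3, OAS1, IFI44, IFI44L and PARP9 lie above the grey ones, in PC-3 those of IFIT3, OAS1 and PARP9 lie below, and in LNCaP ISG15 and IFI35 hold 1 orange point far above the rest.

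In PC-3, no member was higher after 12 h of PDA-66 and 10 of 37 were lower. The share of 27.0% is close to the 27.6% of all genes tested, of which 14.6% were lower and 13.0% higher. At an adjusted p under 0.05, 20 members passed, 3 higher and 17 lower (57.0% of all genes tested). The median log2 fold change was -0.27 (-0.01 for all genes), and 11 of 37 members were above 0 (29.7%, and 49.7% of all genes). Between 9 and 12 members passed when 1 sample was left out. Without control replicate 2, 3 of the 12 were higher.

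The control samples set a limit here. Control replicate 2 was above replicate 3 for 26 of 37 members, over 1.5-fold for 10 of them and the other way for 1, with a median ratio of 1.23. The ratio was not taken over all genes, so whether this is particular to the members was not tested. With 2 controls, this spread weighs on every comparison with DMSO.

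Of the 4 IFIT genes in PC-3, IFIT2 and IFIT3 fell after 12 h, and IFIT1 rose after 24 h. In the following sentences the 12 h values are those of replicate 3 and of a pair of samples whose replicate number the labels do not make clear. IFIT3 was at 107 and 116 CPM with DMSO, at 34.5, 37.3 and 35.2 CPM after 12 h and at 83.3, 89.4 and 83.0 CPM after 24 h. IFIT2 was at 71.9 and 73.6 CPM, then 36.7, 41.1 and 35.4 CPM, then 82.9, 88.6 and 82.1 CPM. The 12 h samples of both were the lowest, and at 24 h IFIT3 was still below the controls while IFIT2 was above them. The log2 fold changes after 12 h were -1.65 (SE 0.094, edgeR adjusted p = 2.08e-08) for IFIT3 and -0.95 (SE 0.099, edgeR adjusted p = 4.39e-06) for IFIT2. After 24 h, -0.39 (edgeR adjusted p = 0.00347) and 0.22 (edgeR adjusted p = 0.0836) missed the threshold. IFIT1 was at 39.0 and 31.7 CPM with DMSO, 27.3, 31.2 and 28.1 CPM after 12 h and 53.6, 58.3 and 56.3 CPM after 24 h, and it rose by 0.66 at 24 h (SE 0.12, edgeR adjusted p = 0.00043). IFIT5 stayed within 30.8 to 38.8 CPM in all PC-3 samples.

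OAS1 was at 57.4 and 59.0 CPM with DMSO, at 25.0, 22.7 and 23.3 CPM after 12 h and at 30.6, 35.9 and 39.2 CPM after 24 h. It was below the controls at both times, with log2 fold changes of -1.30 (SE 0.11, edgeR adjusted p = 9.9e-07) and -0.73 (SE 0.11, edgeR adjusted p = 0.000183). Its neighbour OAS3 was at 108 and 62.6 CPM, then 132, 117 and 129 CPM, then 157, 143 and 173 CPM. All PDA-66 samples of OAS3 were above both controls. The edgeR adjusted p missed the threshold, at 0.0144 after 12 h (log2 fold change 0.56, SE 0.17) and 0.00108 after 24 h (0.89, SE 0.18). Without control replicate 2, OAS3 passed at 24 h (1.34, edgeR adjusted p = 2.11e-06).

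The sensors parted. IFIH1 was at 23.2 and 18.2 CPM with DMSO, at 12.7, 12.5 and 11.2 CPM after 12 h and at 18.7, 19.9 and 21.6 CPM after 24 h, and it fell by 0.77 on the log2 scale after 12 h (SE 0.13, edgeR adjusted p = 0.000311). That call was lost without control replicate 2 or any of the 12 h samples, with an adjusted p of up to 0.00256. DDX58 was at 19.0 and 14.1 CPM with DMSO, at 23.7, 23.8 and 23.4 CPM after 12 h and at 28.5, 29.3 and 27.1 CPM after 24 h, above the controls throughout. Its log2 fold change was 0.51 (SE 0.13, edgeR adjusted p = 0.00461) and 0.77 (SE 0.13, edgeR adjusted p = 0.000347). HERC5, the main ligase for ISG15 in human cells, was at 7.56 and 7.11 CPM, then 12.3, 11.4 and 11.6 CPM, then 16.8, 15.2 and 11.4 CPM, and rose by 0.99 at 24 h (SE 0.17, edgeR adjusted p = 0.000367). ISG15 overlapped between the groups, with 94.4 and 85.1 CPM, then 84.4, 78.1 and 88.7 CPM, then 84.2, 100 and 138 CPM.

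The transcription factors fell in PC-3, apart from IRF7. STAT2, a subunit of ISGF3, was at 110 and 82.5 CPM with DMSO, at 54.8, 52.9 and 54.8 CPM after 12 h and at 63.4, 68.3 and 74.1 CPM after 24 h. IRF9 was at 63.3 and 68.7 CPM, then 31.3, 28.2 and 25.9 CPM, then 38.2, 37.7 and 42.9 CPM. IRF1 was at 58.9 and 42.4 CPM, then 25.6, 27.6 and 27.0 CPM, then 23.6, 23.3 and 28.1 CPM. In all of them every PDA-66 sample was below both controls. At 12 h the log2 fold change was -0.83 (SE 0.12, edgeR adjusted p = 6.97e-05) for STAT2, -1.21 (SE 0.11, edgeR adjusted p = 1.28e-06) for IRF9 and -0.92 (SE 0.14, edgeR adjusted p = 8.63e-05) for IRF1. At 24 h IRF9 (-0.74, SE 0.11, edgeR adjusted p = 0.000122) and IRF1 (-1.02, SE 0.14, edgeR adjusted p = 6.13e-05) passed, and STAT2 (-0.49, SE 0.12, edgeR adjusted p = 0.00452) did not.

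PARP9 was at 173 and 146 CPM with DMSO, at 72.4, 72.3 and 68.9 CPM after 12 h and at 117, 108 and 106 CPM after 24 h. ISG20 was at 33.9 and 32.9 CPM, then 16.3, 17.4 and 16.1 CPM, then 18.0, 21.1 and 27.3 CPM. XAF1, an antagonist of an apoptosis inhibitor, was at 4.66 and 5.03 CPM, then 1.36, 1.27 and 1.24 CPM, then 2.19, 3.24 and 3.65 CPM. In these genes the 12 h samples were lowest and the 24 h samples lay between them and the controls. The log2 fold changes after 12 h were -1.17 (SE 0.099, edgeR adjusted p = 7.31e-07) for PARP9, -1.01 (SE 0.15, edgeR adjusted p = 7.7e-05) for ISG20 and -1.90 (SE 0.24, edgeR adjusted p = 2.28e-05) for XAF1. At 24 h PARP9 passed (-0.53, SE 0.099, edgeR adjusted p = 0.000714), and it lost the threshold without any single sample other than control replicate 3. MX1, MX2, the IFI genes, RSAD2, BST2, SAMD9, SAMD9L, PARP14, TAP1, PSMB8 and PSMB9 passed at neither time in PC-3.

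After 24 h in PC-3, 3 of 37 members were higher (IFIT1, DDX58 and HERC5) and 4 were lower (OAS1, IRF1, IRF9 and PARP9). The share of 18.9% is near the 19.3% of all genes tested (8.88% higher, 10.5% lower), and the median log2 fold change was 0.04 (-0.01 for all genes). This count moved with single libraries. It was 11 without control replicate 2 (8 higher), 4 without 12 h replicate 3, 3 without 24 h replicate 1 and 1 without 24 h replicate 2, and the median ran from -0.05 to 0.26. The calls for IFIT1, DDX58 and HERC5 were each lost without control replicate 3, 24 h replicate 1 or 24 h replicate 2. IFIT1 and DDX58 also lost it without 12 h replicate 3, IFIT1 without 24 h replicate 3 and HERC5 without control replicate 2.

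Compared directly in PC-3, 24 h against 12 h, 4 of 37 members were higher and none was lower, which is 10.8%, whereas 1.41% of all genes tested passed (0.777% higher, 0.631% lower). These were IFIT3 (1.26, SE 0.087, edgeR adjusted p = 3.45e-06), IFIT2 (1.16, SE 0.090, edgeR adjusted p = 9.03e-06), IFIT1 (0.96, SE 0.10, edgeR adjusted p = 8.43e-05) and PARP9 (0.64, SE 0.091, edgeR adjusted p = 0.000736). The log2 difference was above 0 for 35 of 37 members (94.6%, and 49.5% of all genes), with a median of 0.34 (0 for all genes). The number was 7 without either control and 2 without 12 h replicate 3, the second of the pair of unnumbered 12 h samples, or 24 h replicate 2, and every member that passed was higher.

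In LNCaP, none of the 30 members past the filter passed the edgeR test after 12 h or 24 h of PDA-66. Of all genes tested 0.00760% passed after 12 h and 0% after 24 h, so the members cannot be set apart from the background there. The spread between replicates that edgeR estimated (biological coefficient of variation) was 0.24 in LNCaP, 0.097 in PC-3 and 0.1001 in CT1258. With this wider spread fewer changes can pass, so the lack of calls does not show a lack of response. The paper reported far more LNCaP genes at both times with edgeR at the same threshold, and the reason was not tested. At an adjusted p under 0.05, 4 members passed after 12 h (9.14% of all genes tested did) and 3 after 24 h (2.92%), and an unadjusted p under 0.05 was reached by 12 and 9 members (30.0% and 19.8% of all genes tested). DESeq2 called 2 and 1 members, and the exact test of edgeR, run on just the 2 groups compared, called 2 and 4. The shares of all genes that these other tests called are not given here, so these counts cannot be set against a background. ISG20 and SAMD9, which only the exact test called after 24 h, were named after their values were seen. MX2, OAS2, IFI27, IFI44L, SAMD9L, XAF1 and PSMB8 had too few counts to be tested.

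OAS3 and HERC5 are the members behind most of these calls. OAS3 was at 27.4, 18.0 and 13.7 CPM with DMSO, at 66.1, 75.7 and 69.9 CPM after 12 h and at 53.9, 49.5 and 51.9 CPM after 24 h. HERC5 was at 4.09, 4.03 and 3.86 CPM with DMSO, at 1.53, 0.823 and 0.717 CPM after 12 h and at 1.15, 2.09 and 1.23 CPM after 24 h. PDA-66 and control samples of both genes were far apart, OAS3 above and HERC5 below the controls. The log2 fold change of OAS3 was 1.84 (SE 0.24, edgeR adjusted p = 0.00637) after 12 h and 1.39 (SE 0.23, edgeR adjusted p = 0.0248) after 24 h, and that of HERC5 was -1.94 (SE 0.34, edgeR adjusted p = 0.012) and -1.42 (SE 0.32, edgeR adjusted p = 0.0492). USP18 (1.19) and IFIT2 (-1.45) after 12 h and RSAD2 (-1.21), the enzyme viperin, after 24 h were the others at an adjusted p under 0.05.

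One LNCaP library stood apart. LNCaP 12 h replicate 2 had a normalization factor of 0.868, and those of the other LNCaP samples were 1.00 to 1.02. For 18 members it was above and for 17 below both other 12 h replicates, and the split over all genes was not counted. ISG15 was at 48.2, 235 and 59.5 CPM after 12 h, with 56.2, 31.4 and 38.8 CPM in the controls and 62.9, 60.1 and 63.4 CPM after 24 h. IFI35 was at 4.91, 24.5 and 4.95 CPM and USP18 at 19.1, 47.6 and 22.3 CPM after 12 h, again with replicate 2 as the high value. COL1A1 was also highest there, at 125 CPM compared with 18.5 to 27.9 CPM in the other LNCaP samples. Without this library, OAS3 passed after 12 h (log2 fold change 1.79, edgeR adjusted p = 0.000652) and no other member did. The part of this library in the wider spread of the LNCaP fit was not tested.

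The cell lines differed in response, which was tested as an interaction in 1 fit over the genes that share a name in all 3 tables. All 26 members in that fit were tested, IFIT2 and RSAD2 among them, which have at most 21 and 19 counts in a CT1258 sample and passed the filter through the human cell lines. After 12 h, the response of PC-3 was lower than that of CT1258 for 9 of 26 members and higher for none (34.6%, and 9.33% of all genes tested, 5.02% lower and 4.31% higher). The median difference was -1.17 on the log2 scale (0.02 for all genes), and 24 of 26 members were below 0. Among the 19 members past the filter in both cell lines, 8 were lower and none was higher (42.1%, and 12.2% of all such genes, 6.46% lower), with a median of -1.23 (0.07). Of these, the differences were largest for IFIT3 (-3.90, SE 0.42, edgeR adjusted p = 3.55e-07), IFI44L (-3.80, SE 0.33, edgeR adjusted p = 9.93e-09), OAS1 (-2.54, SE 0.24, edgeR adjusted p = 4.2e-08) and PARP9 (-2.36, SE 0.20, edgeR adjusted p = 9.05e-09). IFIH1, HERC6, IFI44 and IRF1 also passed. IFIT2 is the other of the 9, and its value rests on few CT1258 counts. Without 1 sample the number was 6 to 8. After 24 h, OAS3 was the one member that differed (1.43, SE 0.28, edgeR adjusted p = 0.000869), 3.85% compared with 4.79% of all genes tested (2.25% higher). That call was lost in 14 of 17 fits without 1 sample, among them those without PC-3 control replicate 3 and without any of the PDA-66 24 h samples.

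**Figure D4:**
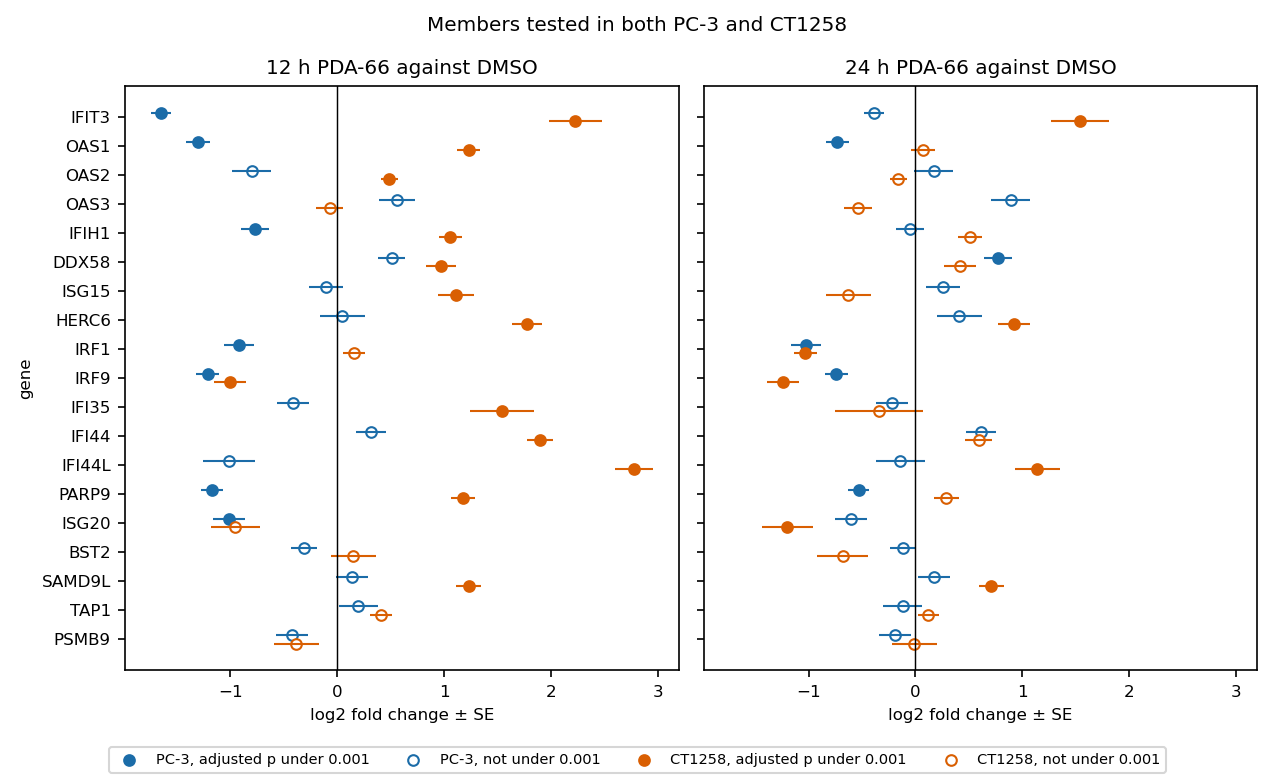
Log2 fold change (x axis, ± SE) of PDA-66 against DMSO after 12 h (left) and 24 h (right) for the 19 members tested in both PC-3 (blue) and CT1258 (orange); filled symbols have an edgeR adjusted p under 0.001. After 12 h, IFIT3, OAS1, IFIH1 and PARP9 are filled on opposite sides of 0, and IRF9 is filled on the left in both.

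Of the 19 members tested in both cell lines, 11 had opposite signs after 12 h (57.9%, and 41.7% of the 8703 genes tested in both). Of these 19, 7 passed in PC-3 and 13 in CT1258, and 5 passed in both (71.4% of the 7 and 38.5% of the 13). Over all genes tested in both, 49.0% of those that passed in PC-3 and 28.9% of those that passed in CT1258 passed in both, and 26.8% of these had opposite signs. IFIT3, OAS1, IFIH1 and PARP9 were lower in PC-3 and higher in CT1258. IRF9 was lower in both. The gene tables come from separate genomes, mappers and counting, which cannot be told apart from the cell line.

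Against LNCaP, the response of PC-3 after 12 h was lower for 3 of 26 members, OAS1 (-2.11, SE 0.29, edgeR adjusted p = 2.13e-05), IFI44L (-2.77, SE 0.52, edgeR adjusted p = 0.000634) and PARP9 (-1.05, SE 0.19, edgeR adjusted p = 0.000542), and higher for none (11.5%, whereas 3.57% of all genes tested passed, 1.60% lower and 1.97% higher). IFI44L had at most 14 counts in a LNCaP sample and entered this fit through the other cell lines. Among the 22 members past the filter in both PC-3 and LNCaP, OAS1 and PARP9 passed (9.09%, and 4.26% of all such genes). The number over all 26 was 1 without PC-3 control replicate 2 and 5 without LNCaP control replicate 1. After 24 h none passed with edgeR, whereas 1.23% of all genes tested did (0.784% higher, 0.443% lower). An unadjusted edgeR p under 0.05 was reached by 7 members (23.5% of all genes tested). DESeq2 called 2 members, and its share of all genes is not given here. With edgeR, the number was 1 without LNCaP control replicate 1 and 2 without LNCaP 12 h replicate 2. In a fit of the human cell lines alone, which was added after seeing the data and includes members not listed for CT1258, OAS1 (-2.09, SE 0.33, edgeR adjusted p = 0.000645) and HERC5 (2.67, SE 0.37, edgeR adjusted p = 0.000265) differed after 12 h, while IFI44L (edgeR adjusted p = 0.00492) and PARP9 (edgeR adjusted p = 0.00578) did not pass.

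CT1258 responded more than LNCaP after 12 h for IFIT2, IFIT3, DDX58, HERC6, PARP9 and RSAD2 and less for OAS3, 7 of 26 members (26.9%), whereas 12.8% of all genes tested passed (6.07% higher, 6.78% lower). Among the 16 members past the filter in both cell lines, without IFIT2 and RSAD2, 4 were higher and 1 was lower (31.2%, and 17.6% of all such genes). HERC6 differed by 1.82 (SE 0.26, edgeR adjusted p = 1.65e-05), PARP9 by 1.31 (SE 0.19, edgeR adjusted p = 1.93e-05) and OAS3 by -1.85 (SE 0.27, edgeR adjusted p = 1.78e-05). The number was 4 without LNCaP control replicate 1 or CT1258 12 h replicate 1. After 24 h, OAS3 alone passed (-1.90, SE 0.27, edgeR adjusted p = 3.84e-05), with 3.44% of all genes tested (1.66% higher, 1.78% lower), and the number was 2 without LNCaP control replicate 3 and 3 without LNCaP 12 h replicate 2.

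For the lists of other genes of the pathway that follow, the shares of all genes tested that passed are those given above, 27.6% and 19.3% in PC-3 and 44.3% and 33.8% in CT1258 after 12 h and 24 h. The interferon genes that were listed were near 0, apart from IFNE in PC-3. For CT1258, 3 of the 10 interferon genes sought were listed (IFNB1, IFNE and IFNK), with at most 2 counts in a sample. Whether a 0 in CT1258 reflects the annotation or the mapping was not tested. Leaving aside IFNE, no interferon gene of 9 listed in the human tables had more than 3 counts in a PC-3 sample or 2 counts in a LNCaP sample, and IFNB1 was at 0 in every LNCaP and CT1258 sample. IFNL1, a type III interferon, was among these 9 and is not listed for CT1258. A count of 0 allows up to 3 counts of the total, which is 0.166 to 0.205 CPM in PC-3, 0.204 to 0.252 CPM in LNCaP and 0.143 to 0.416 CPM in CT1258, counting error only. IFNE, an interferon of epithelia, was at 1.89 and 3.49 CPM in PC-3 DMSO, at 0.592, 0.497 and 0.718 CPM after 12 h and at 0.711, 0.733 and 0.947 CPM after 24 h. It fell by 2.16 (SE 0.34, edgeR adjusted p = 0.00013) and 1.75 (SE 0.32, edgeR adjusted p = 0.00066) on the log2 scale.

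Receptors and signal transducers mostly did not pass. Of 10 such genes tested in PC-3, JAK2 was higher and IFNGR2 lower after 12 h, and IFNGR2 was lower after 24 h. IFNGR2, a chain of the interferon gamma receptor, was at 136 and 164 CPM with DMSO, at 51.0, 51.9 and 50.5 CPM after 12 h and at 67.0, 69.4 and 69.1 CPM after 24 h (log2 fold change -1.55, SE 0.099, edgeR adjusted p = 5.36e-08, and -1.13, SE 0.098, edgeR adjusted p = 1.97e-06). JAK2 was the one of 5 tested in CT1258 that passed, with 67.5, 54.3 and 67.0 CPM, then 153, 155 and 134 CPM, then 96.5, 102 and 111 CPM (log2 fold change 1.23, SE 0.10, edgeR adjusted p = 2.1e-07, and 0.71, SE 0.10, edgeR adjusted p = 4.44e-05). IFNAR1, IFNAR2, JAK1 and TYK2 passed in no comparison with DMSO in which they were tested. JAK1 was at 158 and 113 CPM in PC-3 DMSO and at 6.91, 16.3 and 15.2 CPM in LNCaP DMSO.

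Of 13 genes of nucleic acid sensing tested in PC-3, 3 were higher (CGAS, IKBKE and IRF5) and 3 lower (STING1, IFI16 and TREX1) after 12 h, and CGAS and IKBKE were higher and STING1 lower after 24 h. CGAS, the sensor of DNA in the cytoplasm, was at 12.0 and 11.2 CPM with DMSO, at 33.5, 33.4 and 32.6 CPM after 12 h and at 23.4, 23.4 and 19.8 CPM after 24 h. STING1, the adaptor that cGAS acts on, was at 36.5 and 34.1 CPM, then 13.3, 11.3 and 12.3 CPM, then 21.4, 19.9 and 23.9 CPM. CGAS was above and STING1 below the controls in every PDA-66 sample. The log2 fold changes were 1.51 (SE 0.12, edgeR adjusted p = 4.67e-07) and 0.94 (SE 0.12, edgeR adjusted p = 4.81e-05) for CGAS, and -1.52 (SE 0.12, edgeR adjusted p = 3.98e-07) and -0.70 (SE 0.12, edgeR adjusted p = 0.000326) for STING1. IKBKE, a kinase of interferon regulatory factors, rose by 1.37 (SE 0.16, edgeR adjusted p = 1.32e-05) and 1.41 (SE 0.16, edgeR adjusted p = 1.71e-05). In LNCaP CGAS had no more than 1 count in a sample, and both CGAS and STING1 were listed at 0 in CT1258.

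In CT1258, 2 of 8 sensing genes were higher at each time, TBK1 and SAMHD1, and MAVS and IRF3 were lower, with TICAM1 lower too after 12 h. IRF3, the factor that turns on interferon beta, was at 73.6, 88.3 and 66.2 CPM with DMSO, at 27.8, 29.5 and 33.4 CPM after 12 h and at 39.9, 34.0 and 32.6 CPM after 24 h (log2 fold change -1.33, SE 0.13, edgeR adjusted p = 6.7e-07, and -1.10, SE 0.12, edgeR adjusted p = 5.82e-06). TBK1, the kinase that activates IRF3, was at 39.6, 34.9 and 38.1 CPM, then 71.5, 67.2 and 56.8 CPM, then 60.6, 72.0 and 68.0 CPM (0.80, SE 0.11, edgeR adjusted p = 1.63e-05, and 0.83, SE 0.11, edgeR adjusted p = 1.78e-05). The groups of both genes did not overlap with the controls. MAVS, the adaptor of RIG-I and MDA5, fell by 0.62 (SE 0.10, edgeR adjusted p = 0.000124) and 0.49 (SE 0.10, edgeR adjusted p = 0.000953), and SAMHD1, which degrades nucleotides, rose by 1.35 (SE 0.18, edgeR adjusted p = 1.28e-05) and 0.87 (SE 0.18, edgeR adjusted p = 0.000872). MAVS, TBK1 and IRF3 passed in neither comparison in PC-3, and TLR3, a sensor of RNA in endosomes, was at or below 0.711 CPM there.

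**Figure D5:**
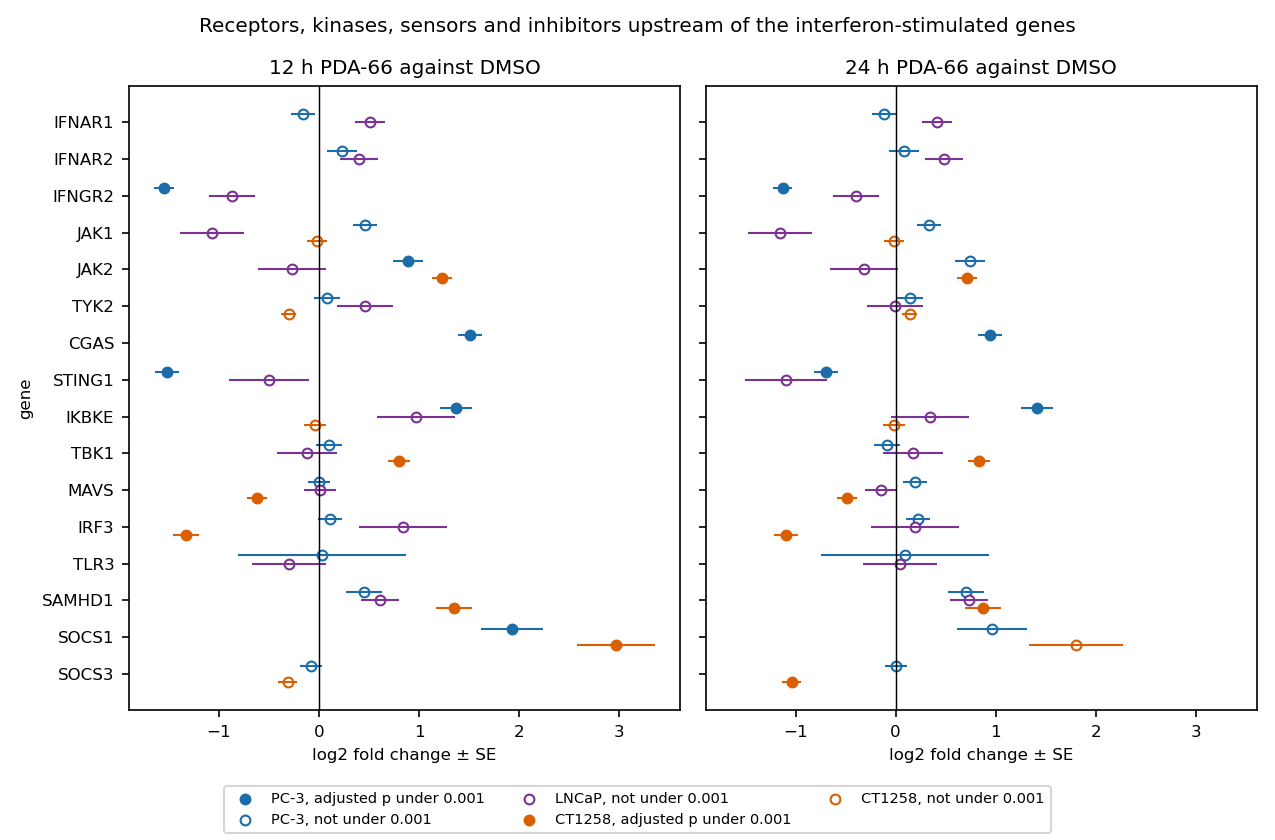
Log2 fold change (x axis, ± SE) of genes upstream of the interferon-stimulated genes (rows) after 12 h (left) and 24 h (right) of PDA-66 against DMSO, with PC-3 in blue, LNCaP in purple and CT1258 in orange; filled symbols have an edgeR adjusted p under 0.001 and genes without a symbol were not tested in that line. CGAS is filled to the right and STING1 to the left in PC-3, IRF3 is filled to the left in CT1258, and no LNCaP symbol is filled.

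SOCS1, which inhibits JAK kinases and is itself induced by interferon, rose after 12 h in both PC-3 and CT1258. It was at 0.608 and 0.738 CPM in PC-3 DMSO, at 2.96, 2.43 and 2.35 CPM after 12 h and at 1.13, 1.16 and 1.69 CPM after 24 h. In CT1258 it was at 0.198, 0.398 and 0.199 CPM, then 2.26, 1.56 and 2.67 CPM, then 0.859, 0.787 and 1.22 CPM. The levels were low, but the 12 h samples were the highest in both cell lines. The log2 fold change after 12 h was 1.93 (SE 0.31, edgeR adjusted p = 0.000175) in PC-3 and 2.97 (SE 0.39, edgeR adjusted p = 1.36e-05) in CT1258. In CT1258 PTPN11 rose by 0.79 (SE 0.14, edgeR adjusted p = 0.000206) and PIAS1 by 0.55 (SE 0.10, edgeR adjusted p = 0.000342) after 12 h, and SOCS3 fell by 1.04 (SE 0.099, edgeR adjusted p = 1.27e-06) after 24 h.

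A list of 34 other interferon-stimulated genes and a list of 14 genes of the MHC class I pathway were read beside the members. Of 31 other interferon-stimulated genes tested in PC-3, 3 were higher and 9 lower after 12 h (EIF2AK2, LAP3 and TDRD7 were higher, with a median log2 fold change of -0.10 over the list), and 3 higher and 4 lower after 24 h. GBP2, a guanylate-binding GTPase, fell by 2.11 (SE 0.17, edgeR adjusted p = 3.95e-07) and IFITM1, which blocks virus entry, by 1.85 (SE 0.16, edgeR adjusted p = 1.02e-06) after 12 h. TRIM22 fell by 2.04 (SE 0.39, edgeR adjusted p = 0.000638), and TDRD7 rose by 1.04 (SE 0.14, edgeR adjusted p = 3.19e-05). In CT1258, 4 of 14 tested were higher (TRIM25, DTX3L, ZC3HAV1 and NT5C3) and LGALS3BP was lower after 12 h, and LGALS3BP alone passed after 24 h, again lower. These genes were named after their values were seen, as were IRF5, IFI16, TREX1 and TICAM1 above. DTX3L, the partner of PARP9, fell by 0.76 (SE 0.094, edgeR adjusted p = 1.83e-05) in PC-3 and rose by 0.91 (SE 0.097, edgeR adjusted p = 1.9e-06) in CT1258 after 12 h, the directions of PARP9 itself.

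In the MHC class I pathway, 1 of 14 genes was higher and 4 were lower in PC-3 after 12 h, and 1 was higher and 3 lower after 24 h. NLRC5, the transactivator of MHC class I genes, was at 23.1 and 19.1 CPM with DMSO, at 6.57, 6.62 and 7.57 CPM after 12 h and at 10.9, 10.5 and 11.8 CPM after 24 h, so that no sample overlapped. Its log2 fold change was -1.61 (SE 0.14, edgeR adjusted p = 6.71e-07) and -0.93 (SE 0.13, edgeR adjusted p = 8.53e-05). HLA-E fell by 0.71 (SE 0.11, edgeR adjusted p = 0.000112) and 0.92 (SE 0.11, edgeR adjusted p = 2e-05), while TAP2, a subunit of the peptide transporter, rose by 1.07 (SE 0.13, edgeR adjusted p = 1.62e-05) and 0.90 (SE 0.13, edgeR adjusted p = 9.85e-05). In CT1258, PSMB10, an immunoproteasome subunit, was the one of 7 that passed, lower at both times (-1.31, SE 0.18, edgeR adjusted p = 1.86e-05, and -1.13, SE 0.18, edgeR adjusted p = 8.8e-05). No gene of these lists passed the edgeR test in LNCaP.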

How the data were processed

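Single reads were obtained from poly(A) RNA of the 3 cell lines. The authors mapped human reads to hg19 with STAR 2.3.1s and canine reads to CanFam3.1 with BWA, counted reads per gene, and deposited whole read counts per gene without normalization. Of 27 samples mapped to a group, 26 had counts. Total counts, given in the report, set the precision, together with 2 or 3 replicates per group.

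Counts of each cell line were analysed with edgeR 4.0.16 (R 4.3.3, limma 3.58.1): filterByExpr, TMM, the quasi-likelihood F test over the 3 groups, and Benjamini-Hochberg adjustment over all genes tested, with 0.001 as the threshold. Genes below the filter have no test. Differences between cell lines were interactions in 1 fit over 14436 shared names, of which 11736 were tested, and the PC-3 and LNCaP controls were compared in a fit of both lines. CPM use the total count of the genes past the filter scaled by the TMM factor of that fit, and RPKM, from the fit of both human lines, also the canonical transcript length. Limits for a count of 0 use the unscaled total. Fits were tested on simulated data with 200 changed genes. Alternatives were DESeq2 1.42.0 (size factors, Wald test), edgeR's exact test, no filter, an adjusted p under 0.05, a replicate block, thinned CT1258 control counts and leaving out each sample, and a fit of the human cell lines alone, used for 12 h and 24 h, was chosen after seeing the data (2 alternatives). Figures were made with matplotlib 3.10.9.

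The members and gene lists were chosen with earlier results of these data known. Named genes were the members past the threshold in a comparison of PDA-66 with DMSO, a fixed set of upstream genes whatever their result, and up to 4 genes of each of 6 pathway lists with the largest change at a mean of at least 1 CPM, and genes outside it are marked as named after their values were seen. Positions are from the GRCh37 annotation, the build hg19. The canine genome was not used here, and some genes of the fixed sets are not reported here. Nothing in the labels says more of the replicates than that they were independent, so p-values measure the spread between these cultures.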

Additional observations from a re-analysis of the deposited data

Results flagged for a closer look

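Differences between cell lines or time points that passed their own edgeR test (adjusted p under 0.001) are collected here as log2 values. In 21 cases the response to PDA-66 differed between cell lines. Between PC-3 and CT1258 after 12 h, the response of PC-3 was lower for IFIT2 (-3.56), IFIT3 (-3.90), OAS1 (-2.54), IFIH1 (-1.84), HERC6 (-1.75), IRF1 (-1.10), IFI44 (-1.59), IFI44L (-3.80) and PARP9 (-2.36), and after 24 h it was higher for OAS3 (1.43). Between PC-3 and LNCaP after 12 h, it was lower in PC-3 for OAS1 (-2.11), IFI44L (-2.77) and PARP9 (-1.05). Between CT1258 and LNCaP after 12 h, it was higher in CT1258 for IFIT2 (4.08), IFIT3 (2.69), DDX58 (1.21), HERC6 (1.82), PARP9 (1.31) and RSAD2 (2.03) and lower for OAS3 (-1.85), as it was for OAS3 after 24 h (-1.90). IFIT2 and RSAD2 have at most 21 and 19 counts in a CT1258 sample, and IFI44L has under 1 CPM in every LNCaP sample. These comparisons share samples, so they do not count as independent of each other.

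In 11 cases the 24 h samples differed from the 12 h samples. In PC-3, IFIT1 (0.96), IFIT2 (1.16), IFIT3 (1.26) and PARP9 (0.64) were higher after 24 h. In CT1258, OAS1 (-1.16), OAS2 (-0.65), ISG15 (-1.74), IRF1 (-1.19), IFI44 (-1.30), IFI44L (-1.64) and PARP9 (-0.89) were lower. The difference between the cell lines in these changes with time was not tested.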

How the results depend on the processing

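No value that was called changed sign past the threshold in the alternatives run. At an adjusted p under 0.05, the members called, with the share of all genes tested in parentheses, were 20 (57.0%) and 18 (49.9%) in PC-3, 4 (9.14%) and 3 (2.92%) in LNCaP after 12 h and 24 h, 13 (62.1%) in CT1258 after 24 h, 13 (10.1%) and 14 (19.3%) for 24 h against 12 h in PC-3 and CT1258, 9 (19.6%) and 5 (9.70%) for PC-3 against LNCaP, 6 (21.2%) for PC-3 against CT1258 after 24 h and 13 (40.2%) and 5 (21.1%) for CT1258 against LNCaP. The DESeq2 Wald test called 2 and 1 in LNCaP, 8 for 24 h against 12 h in PC-3, and 2, 4 and 4 in the responses after 24 h (PC-3 against LNCaP, PC-3 against CT1258, CT1258 against LNCaP). The edgeR exact test on the 2 groups alone called 2 and 4 in LNCaP and 14 and 13 for 24 h against 12 h in PC-3 and CT1258. With DESeq2 size factors, no member differed between PC-3 and CT1258 after 24 h. The fit of the human cell lines alone called 2 members after 12 h. For these other tests and fits, and for the replicate block below, the share of all genes tested is not given here. The cause of these moves was not tested, other than that a looser threshold calls more.

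Leaving out 1 sample gave 9 to 12 (PC-3, 12 h), 1 to 11 (PC-3, 24 h), 0 to 1 and 0 (LNCaP), 12 to 15 and 3 to 10 (CT1258), 2 to 7 and 3 to 13 (24 h against 12 h in PC-3 and CT1258), 1 to 5 and 0 to 2 (PC-3 against LNCaP), 6 to 8 and 0 to 1 (PC-3 against CT1258), 4 to 8 and 1 to 3 (CT1258 against LNCaP) and 26 to 32 (PC-3 against LNCaP with DMSO). Over the log2 fold changes of members called, 491 alternatives kept the call and 57 lost it, and of those not called 48 passed and 904 did not.

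No clear pairing by replicate number was seen, but the correlations cannot exclude it. The deviations of the 2 PC-3 controls are mirror images of each other, so the PC-3 values say little. Deviations of samples with the same number correlated from -0.114 to 0.0831 in PC-3, from -0.42 to 0.185 in LNCaP and from -0.189 to 0.153 in CT1258. For PC-3 after 24 h, the replicate block was fitted on replicates 2 and 3 of DMSO and 24 h alone. It called 3 members (MX1 and OAS3 higher, IRF1 lower), of which IRF1 alone was also called in the main fit. The calls of IFIT1, DDX58, HERC5, OAS1, IRF9 and PARP9 were lost. Leaving out 24 h replicate 1, without a block, also left 3 members called. The block and the smaller number of samples cannot be told apart here. The DESeq2 Wald test kept all 7 calls of the main fit and added MX1, OAS3 and IFI44 as higher. In LNCaP and CT1258 the block changed no count. No block could be fitted for PC-3 after 12 h, where 1 sample alone carries a clear number. Genes with few counts, such as IFI35 in CT1258, are limited by depth, and PC-3 by its 2 controls.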

Other observations

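In LNCaP, VWF was at 22.9, 40.2 and 27.4 CPM with DMSO, at 4.85, 14.5 and 5.52 CPM after 12 h and at 7.04, 6.18 and 7.28 CPM after 24 h, with PECAM1 and CDH5 at no more than 1 count in any sample.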
